A study of Mus musculus with 8 samples.

Results

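The UDP-glucuronosyltransferase (Ugt) and sulfotransferase (Sult) genes were read in liver RNA of mice with chemically induced liver cancer. The set held every gene whose symbol starts with Ugt1, Ugt2, Ugt3 or with Sult and a digit, 36 of the 17164 genes measured. It comprised 21 Ugt genes (9 Ugt1a, 3 Ugt2a, 7 Ugt2b and 2 Ugt3a) and 15 Sult genes (5 Sult1, 7 Sult2 and 1 each of Sult3, Sult4 and Sult5). The animals were 24 male C57BL/6 mice in 4 groups of 6, and 2 livers a group were sequenced, so that each replicate is another animal. Model mice were given diethylnitrosamine (DEN, 0.67%), a liver carcinogen, at 2 weeks of age, then carbon tetrachloride (CCl4, 20% in olive oil), a hepatocyte toxin, from week 8 onward. DWYG-M and DWYG-H mice had the same DEN and CCl4 and were also dosed from week 17 with Diwu Yanggan (DWYG), a herbal medicine, DWYG-M at 1 multiple and DWYG-H at 2 multiples of a dose equivalent to that used in patients. For control mice saline took the place of DEN, and the study text names no olive oil for them. All livers were taken at 22 weeks. The labels call the tissue liver and do not say whether nodules were included or avoided.

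UGT enzymes sit in the endoplasmic reticulum and attach glucuronic acid, drawn from UDP-glucuronic acid, to bilirubin, bile acids, steroids, thyroid hormones, drugs and plant phenols. Cytosolic SULT enzymes attach a sulfonate group, drawn from the donor PAPS, to phenols, catecholamines and hydroxysteroids. Both reactions make their substrates more soluble for export into bile or urine, and in mouse liver a number of these genes are known to differ between the sexes under the pattern of growth hormone.

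Levels are given as scaled FPKM, which is the deposited FPKM (fragments per kilobase of transcript, scaled to library size) divided by each library's TMM factor from edgeR (0.849 to 1.144), so that genes of different length can be compared. Fold changes are log2 values from edgeR's quasi-likelihood test on the deposited counts, with Benjamini-Hochberg adjustment over all 11606 genes tested, and a call is an adjusted p under 0.05. Depth was 17345627 to 19191382 counts per library. Of the 36 members, 26 reached an FPKM of 1 in at least 2 libraries and were tested (16 Ugt and 10 Sult). The 10 others (Ugt1a2, Ugt1a8, Ugt1a10, Ugt2a1, Ugt2a2, Sult2a1, Sult2a3, Sult2a5, Sult2b1 and Sult3a1) stayed at or below 1.76 scaled FPKM in every library. The 36 genes together took 0.544% and 0.277% of all counts in model libraries, 0.507% and 0.698% in DWYG-M, 0.493% and 0.545% in DWYG-H, and 0.813% and 0.628% in control.

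The 2 model libraries differed, and with n = 2 neither can be called the unusual one. Model replicate 2 was lower than model replicate 1 in 19 of the 26 tested members, with a median ratio of replicate 1 to replicate 2 of 1.54 over the 26. DWYG-M replicate 2 was above DWYG-M replicate 1 in 22 of the 26. Hepatocyte markers were abundant in all libraries. Their summed level was 63500 to 114800 scaled FPKM in model, 77520 to 101900 in DWYG-M, 87720 to 99730 in DWYG-H and 81760 to 84880 in control. The kidney marker sum, over the 2 of 5 listed genes measured, did not exceed 0.212 scaled FPKM in any library. Gut and pancreas markers were mixed. The pancreatic enzyme genes Prss2 and Pnlip were each at 0 in 7 of the 8 libraries. Fabp2 (60.6 to 171.72 scaled FPKM) and Cela1 (11.8 to 32.3) were present in all 8. Muc2 did not exceed 0.0195 scaled FPKM. Vil1 was at 5.34 in model replicate 1 and at most 0.798 in every other library.

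By mean level over all 8 libraries, Ugt2b5 (680.91 scaled FPKM), Ugt2b36 (402.76), Sult2a8 (367.04), Ugt2b1 (249.31) and Sult1a1 (228.03) had the highest means. Next came Ugt2b34 (183.92), Ugt3a2 (175.65), Ugt1a1 (158.28), Ugt1a6b (132.55) and Ugt2a3 (117.93). The order differed between groups: Sult1a1 averaged 225 scaled FPKM in model and 153 in control, while Sult2a8 averaged 118 in model and 687 in control. The Ugt2b genes carried most of the summed Ugt level, at 1393.9 of 2006.8 and 759.99 of 1155.4 scaled FPKM in model libraries and 2697.8 of 3695.8 and 2134.5 of 3068.8 in control libraries.

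The comparison of model with control asked what the carcinogen and toxin regimen changed. In model liver 4 of the 26 tested members rose and 8 fell. These are 15.4% and 30.8% of the tested members, beside 15.1% and 7.12% of all genes tested (22.2% in either direction). The 8 that fell were Ugt2b38, Ugt2b1, Ugt2b5, Ugt3a1, Ugt3a2, Ugt2a3, Sult2a8 and Sult5a1, and the 4 that rose were Ugt1a7c, Sult1e1, Sult2a2 and Sult4a1. Each of these 4 had no control library at an FPKM of 1 and entered the test only through the groups in which it was high, so their number says nothing about the set. The median log2 fold change of the tested members was −0.50, beside −0.01 over all genes tested. It was −0.25 without model replicate 2, −0.96 without model replicate 1, and 0.05 (positive in 15 of 26) on log2(TPM + 1), where the median of all genes was 0.50. Both model libraries lay below both controls in 15 members and above them in 7, beside 29.3% and 30.3% of all genes. On other scales the split changed: 68.0% of all called genes were higher in the edgeR fit, 91.8% in limma on log2(FPKM + 1), with 4 members higher and 5 lower, and 97.5% on log2(TPM + 1), with 7 higher and 5 lower. Of all genes, limma on log2(TPM + 1) called many more than edgeR did (numbers in the closing section). Member counts on these scales therefore cannot be read against the edgeR shares above. Without model replicate 2 the calls were 4 higher and 4 lower, and without either control library they were 2 higher and 2 lower. In bulk liver, fewer cells of a type and less RNA per cell cannot be told apart.

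**Figure D1:**
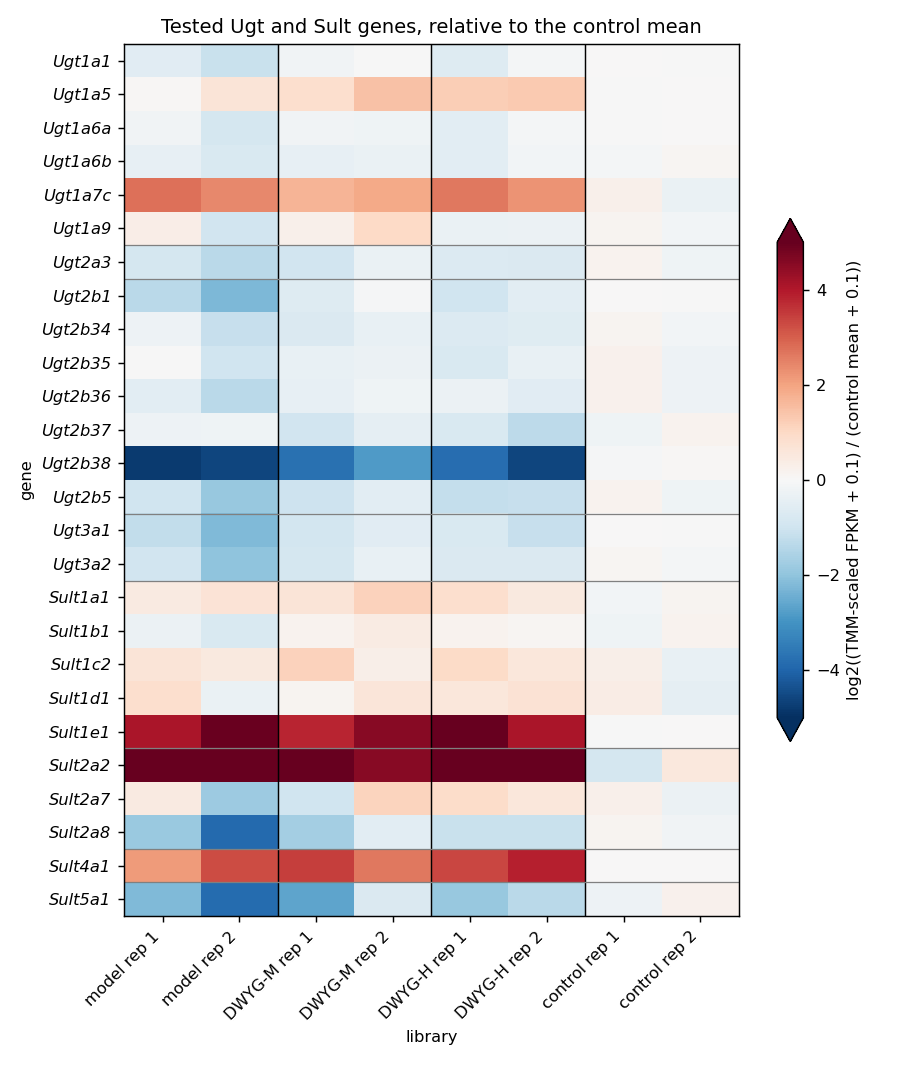
Level of the 26 tested members (rows, grouped by subfamily) in the 8 libraries (columns), as log2 of scaled FPKM over the control mean, with 0.1 added to both; red is above and blue below the control mean. Ugt2b38 is the darkest blue row in model and DWYG libraries, while Sult1e1, Sult2a2 and Sult4a1 are red in all 6 libraries of mice given DEN and CCl4.

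The Ugt2b genes are the main steroid and drug glucuronidating group of mouse liver and lie in a row on chromosome 5 (gene order from RefSeq, GRCm38.p6). The order there is Ugt2b34, Ugt2b1, Ugt2b35, Ugt2b36, Ugt2b5, Ugt2b37, Ugt2a3, Ugt2b38, Ugt2a1 and Ugt2a2, followed by Sult1b1, Sult1d1 and Sult1e1. Ugt2b38 (gene ID 100559), which is described as male-biased in mouse liver, was at 1.19 and 1.37 scaled FPKM in model, 2.61 and 4.91 in DWYG-M, 2.41 and 1.38 in DWYG-H, and 34.6 and 36.6 in control. All 6 libraries of mice given DEN and CCl4 lay far below both controls. In model vs control Ugt2b38 fell by 4.80 on the log2 scale (SE 0.36, edgeR adjusted p = 0.000461, n = 2 per group), the largest fall in the set, and its call held in each of the 18 alternative fits tried.

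Ugt2b1 (gene ID 71773), whose rat counterpart glucuronidates bisphenol A and which is also described as male-biased in mouse, was at 144.51 and 77.9 scaled FPKM in model, 236.69 and 358.63 in DWYG-M, 182.69 and 255.8 in DWYG-H, and 372.18 and 366.11 in control. Both model libraries lay below all 6 others, and Ugt2b1 fell by 1.73 (SE 0.35, adjusted p = 0.0121). Ugt2b5 (gene ID 22238), the member with the highest mean level, was at 567.74 and 303.92 scaled FPKM in model, 554.05 and 775.56 in DWYG-M, 491.25 and 505.17 in DWYG-H, and 1280.2 and 969.33 in control. Both controls were above all other libraries, and Ugt2b5 fell by 1.37 in model (SE 0.33, adjusted p = 0.0244). The Ugt2b5 call was lost in 7 of 18 alternatives (limma on FPKM or TPM, a fit of these 2 groups alone, and without model replicate 2 or a control library), with adjusted p-values up to 0.112. That of Ugt2b1 was lost when a control library was left out (adjusted p up to 0.0554).

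The other 4 Ugt2b genes did not pass the test in model vs control. Ugt2b36 was at 357.56 and 205.2 scaled FPKM in model, 394.47 and 449.59 in DWYG-M, 422.68 and 351.11 in DWYG-H, and 602.2 and 439.28 in control. The log2 change in model was −0.89 (SE 0.30, adjusted p = 0.0687). DESeq2 called it (adjusted p = 0.0109), as did edgeR with no filter on low genes (adjusted p = 0.0476) and without model replicate 1 (adjusted p = 0.019), whereas without model replicate 2 it gave −0.54 (adjusted p = 0.25). Ugt2b34 gave −0.64 (adjusted p = 0.167) and Ugt2b35 −0.42 (adjusted p = 0.389), or 0.11 on TPM values. Ugt2b37, a gene of low level (1.30 to 3.80 scaled FPKM over all libraries), gave −0.23 (adjusted p = 0.621), or 0.04 on FPKM and 0.30 on TPM values, with its 2 model libraries at 2.81 and 2.87 and its controls at 2.88 and 3.80. Among these 7 related neighbours 3 fell, by log2 changes that ranged from −1.37 to −4.80. Ugt2b38 and Ugt2b5 share sequence, with 37.4% of the 50-base windows of the longest Ugt2b38 transcript (GENCODE M21) found in another gene and 34.1% in Ugt2b5. Reads of these genes may have been shared out between them, while Ugt2b1 had no window in common with another gene.

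The starts of 4 of the Ugt2b genes resemble each other although their levels moved unequally, and 3 of these promoters are printed for that reason beside the unrelated one of Ugt2b1. Each is the 250 bases before the RefSeq start (GRCm38.p6), 5′ to 3′ on the gene's own strand, with capitals marking matches to the motifs searched (listed after the sequences).
Ugt2b38, chr5:87424204-87424453, minus strand: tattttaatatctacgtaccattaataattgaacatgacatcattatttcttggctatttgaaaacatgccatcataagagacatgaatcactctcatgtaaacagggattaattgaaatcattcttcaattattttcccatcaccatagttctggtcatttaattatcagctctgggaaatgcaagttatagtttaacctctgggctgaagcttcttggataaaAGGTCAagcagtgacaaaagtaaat
Ugt2b5, chr5:87140341-87140590, minus strand: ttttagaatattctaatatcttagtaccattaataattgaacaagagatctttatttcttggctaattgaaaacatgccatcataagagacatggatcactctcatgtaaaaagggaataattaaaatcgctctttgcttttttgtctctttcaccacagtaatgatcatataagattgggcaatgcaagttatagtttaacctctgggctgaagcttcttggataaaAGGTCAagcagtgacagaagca
Ugt2b37, chr5:87254789-87255038, minus strand: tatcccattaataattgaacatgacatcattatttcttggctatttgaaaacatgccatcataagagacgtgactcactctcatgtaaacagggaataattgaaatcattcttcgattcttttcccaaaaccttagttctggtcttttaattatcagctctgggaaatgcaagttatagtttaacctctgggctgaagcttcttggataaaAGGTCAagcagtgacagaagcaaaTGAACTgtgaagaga
Ugt2b1, chr5:86926504-86926753, minus strand: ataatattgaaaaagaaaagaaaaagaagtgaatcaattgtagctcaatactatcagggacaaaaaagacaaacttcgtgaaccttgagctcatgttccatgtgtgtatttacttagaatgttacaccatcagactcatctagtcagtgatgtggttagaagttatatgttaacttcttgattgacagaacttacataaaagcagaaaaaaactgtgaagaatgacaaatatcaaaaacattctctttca

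The longest run of identical bases was 62 between the Ugt2b38 and Ugt2b5 promoters, 82 between Ugt2b38 and Ugt2b37, and 68 between Ugt2b37 and Ugt2b5, and each of these runs contained AGGTCA. Ugt2b36 shared runs of 22 to 24 bases with these 3, again with AGGTCA in them. Ugt2b1 shared at most 11 bases with any other Ugt2b promoter. The AGGTCA match began 25 bases before the start in Ugt2b38 and in Ugt2b36, 22 in Ugt2b5 and 39 in Ugt2b37, and 14.0% of all 32851 promoters in the table hold this nuclear receptor core. For Ugt2b5 the bases after the RefSeq start were found in no GENCODE M21 transcript of the gene, so its start and distance are less certain. Motifs were searched on both strands in the 250 bases: AGGTCA, its variant AGTTCA (in 11.8% of all promoters), the xenobiotic response core GCGTG (28.2%), TGACNNNGC of the antioxidant response element (10.2%), TTCNNNGAA bound by STAT5 (7.02%), the shorter HNF1 core GTTAAT (6.43%) and CAAAGTCCA bound by HNF4 (0.384%). The full HNF1 palindrome, which contains that core, was also searched (0.00913%). Of the 36 members 30 had a promoter in the table, in 33 windows.

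The 2 Ugt3a genes, neighbours on chromosome 15, fell together in model liver. Human UGT3A1 is known to use UDP-N-acetylglucosamine in place of UDP-glucuronic acid. Ugt3a1 (gene ID 105887) was at 34.2 and 17.2 scaled FPKM in model, 42.5 and 54.1 in DWYG-M, 46.7 and 35.9 in DWYG-H, and 79.7 and 79.1 in control. It fell by 1.62 (SE 0.31, adjusted p = 0.00995), and the call held in all 18 alternatives. Ugt3a2 (gene ID 223337) was at 135.12 and 65.8 scaled FPKM in model, 144.77 and 206.91 in DWYG-M, 162.1 and 161.6 in DWYG-H, and 280.62 and 248.32 in control. It fell by 1.40 (SE 0.33, adjusted p = 0.0229), a call lost in 7 of 18 alternatives, which are those that also ended the Ugt2b5 call (adjusted p up to 0.0916). In both genes every library of mice given DEN and CCl4 lay below both controls.

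Ugt2a3 (gene ID 72094), whose human counterpart glucuronidates bile acids, was at 93.5 and 67.8 scaled FPKM in model, 88.4 and 138.55 in DWYG-M, 106.04 and 104.73 in DWYG-H, and 195.2 and 149.22 in control. It fell by 1.09 (SE 0.27, adjusted p = 0.0245), and this call was lost in limma on FPKM or TPM and when model replicate 2 or a control library was left out (adjusted p up to 0.199). Its relatives Ugt2a1 and Ugt2a2, which serve the olfactory epithelium, were at or near 0 throughout, with a highest level of 0.0296 scaled FPKM.

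**Figure D2:**
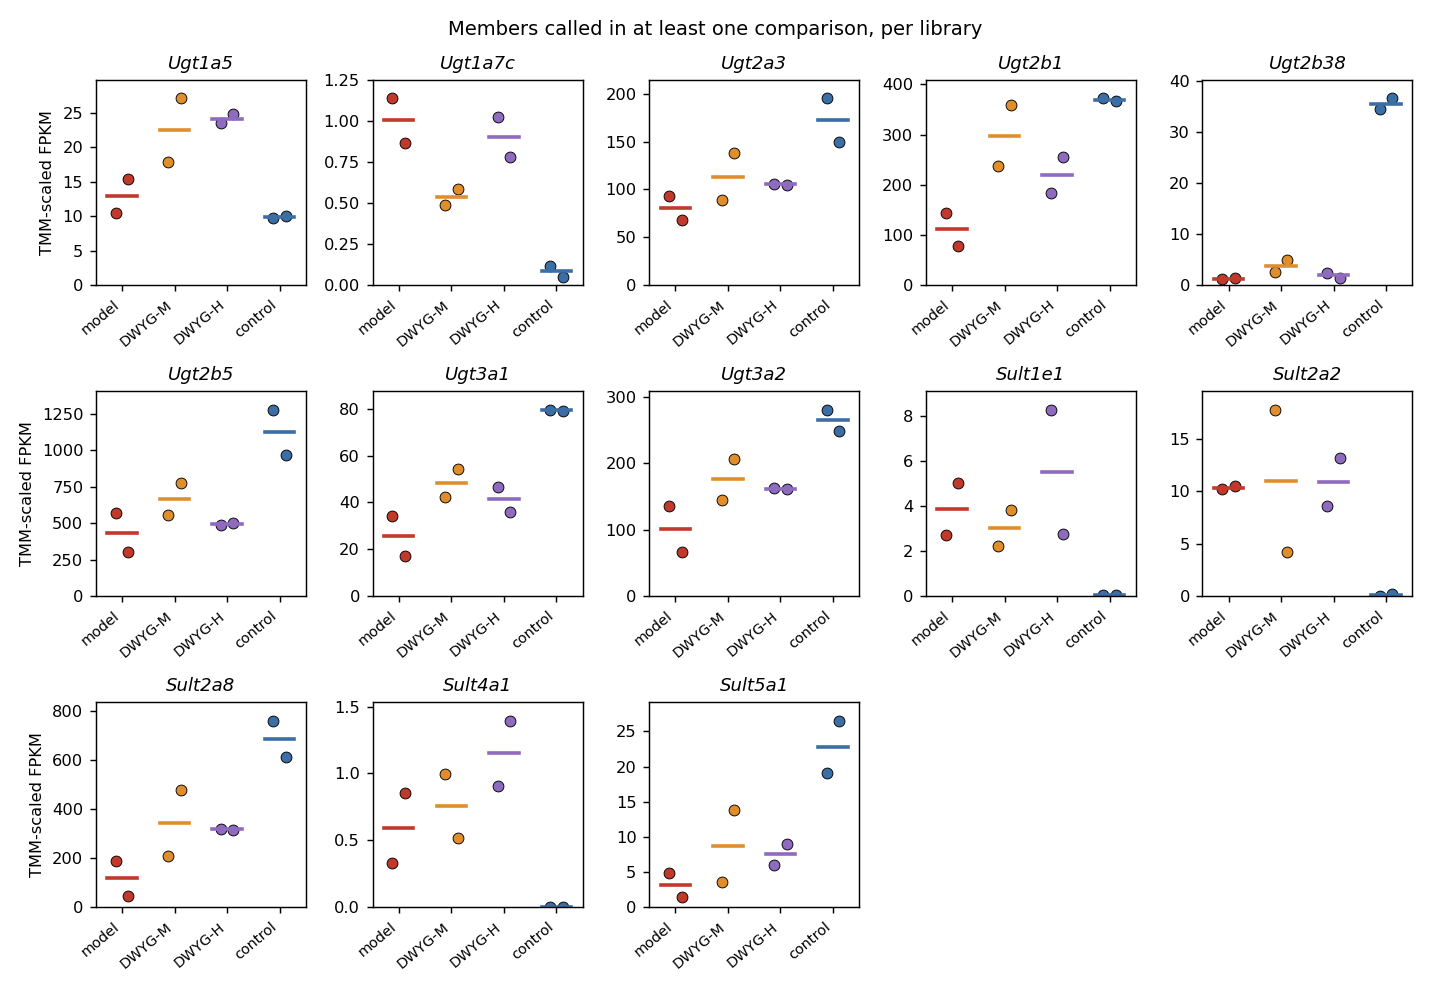
Scaled FPKM of the 13 members called in at least 1 of the 7 comparisons, with 1 point per library, a line at each group mean and groups from model to control along each horizontal axis; each panel has its own vertical scale from 0. The 8 members that fell in model show all 4 DWYG libraries below both controls, and Ugt1a5 is the 1 panel in which DWYG libraries exceed both model and control libraries.

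The Ugt1a genes are built from 1 locus on chromosome 1, where each member has its own first exon and start and all share the remaining exons. Ugt1a1, the bilirubin-conjugating enzyme, was at 128.61 and 88.1 scaled FPKM in model, 169.57 and 189.41 in DWYG-M, 123.78 and 181.78 in DWYG-H, and 193.26 and 191.75 in control. The model libraries lay below both controls, but the change of −0.83 (SE 0.26) had an adjusted p of 0.054 and was no call. DESeq2 called it (adjusted p = 0.00791), as did edgeR with no filter on low genes (adjusted p = 0.037), without model replicate 1 (adjusted p = 0.0303) and without DWYG-H replicate 1 (adjusted p = 0.0478). Ugt1a6b, which like Ugt1a6a conjugates small planar phenols, was at 123.07 and 95.6 scaled FPKM in model, 123.08 and 131.36 in DWYG-M, 113.32 and 147.46 in DWYG-H, and 152.31 and 174.25 in control. Ugt1a6a was at 44.4 and 27.3 scaled FPKM in model, 44.4 and 43.3 in DWYG-M, 34.7 and 46.5 in DWYG-H, and 49.7 and 50.7 in control. For both genes the controls were the highest libraries, but their changes in model were −0.58 (adjusted p = 0.084) for Ugt1a6b and −0.49 (adjusted p = 0.197) for Ugt1a6a, or 0.01 and 0.07 on TPM values. DESeq2 called Ugt1a6b (adjusted p = 0.0387), and edgeR called Ugt1a6a without model replicate 1 (adjusted p = 0.0287). Ugt1a9, whose human counterpart handles bulky phenols, gave −0.17 (adjusted p = 0.793), or 0.28 on TPM values.

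Ugt1a5, described as female-biased in mouse liver, was at 10.4 and 15.4 scaled FPKM in model, 17.8 and 27.1 in DWYG-M, 23.4 and 24.7 in DWYG-H, and 9.77 and 9.95 in control. In model vs control the change was 0.38 (SE 0.25, adjusted p = 0.303). Against control, Ugt1a5 rose by 1.18 in DWYG-M (SE 0.25, adjusted p = 0.0365) and by 1.29 in DWYG-H (SE 0.25, adjusted p = 0.021). All 4 DWYG libraries lay above both model and both control libraries. The first of these calls was lost without DWYG-M replicate 2, either DWYG-H library or either control library (adjusted p up to 0.198), and the DWYG-H call without either DWYG-H or either control library (adjusted p up to 0.148). As a share of the summed Ugt1a level, Ugt1a5 made up 2.97% and 6.28% in model libraries, 4.49% and 5.90% in DWYG-M, 7.26% and 5.76% in DWYG-H, and 2.21% and 2.17% in control.

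Ugt1a7c was the 1 Ugt gene that rose in model liver, from a very low base. It was at 1.14 and 0.868 scaled FPKM in model, 0.488 and 0.585 in DWYG-M, 1.02 and 0.779 in DWYG-H, and 0.119 and 0.0471 in control. The rise of 3.54 (SE 0.47, adjusted p = 0.00252) held in all 15 alternatives in which it could be fitted, and it rested on 8.04 control counts in all. In the reference 69.3% of the 50-base windows of its longest transcript occur in another gene, and 100% of those of Ugt1a6a occur in Ugt1a7c, so the split of reads among Ugt1a genes is uncertain. The gene made up at most 0.355% of the summed Ugt1a level in any library.

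Separate starts of the locus are shown for the member with the highest level and the member that was high in DWYG liver. Build, source, strand and capitals are as for the Ugt2b promoters.
Ugt1a1, chr1:88211709-88211958, plus strand: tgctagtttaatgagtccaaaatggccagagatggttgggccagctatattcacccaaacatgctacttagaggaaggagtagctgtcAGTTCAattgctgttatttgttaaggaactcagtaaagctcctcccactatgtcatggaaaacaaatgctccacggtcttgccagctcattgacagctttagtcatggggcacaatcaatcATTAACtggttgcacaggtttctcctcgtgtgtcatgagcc
Ugt1a5, chr1:88165762-88166011, plus strand: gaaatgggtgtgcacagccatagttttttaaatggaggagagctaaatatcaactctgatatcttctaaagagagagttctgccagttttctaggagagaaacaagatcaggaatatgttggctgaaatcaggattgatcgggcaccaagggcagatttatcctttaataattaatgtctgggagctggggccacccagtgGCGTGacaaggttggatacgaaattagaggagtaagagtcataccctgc

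The Ugt1a1 window held 1 match to AGTTCA and 1 to GTTAAT, and that of Ugt1a5 held 1 to GCGTG. A match is a description of the letters, not a site of binding.

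**Figure D3:**
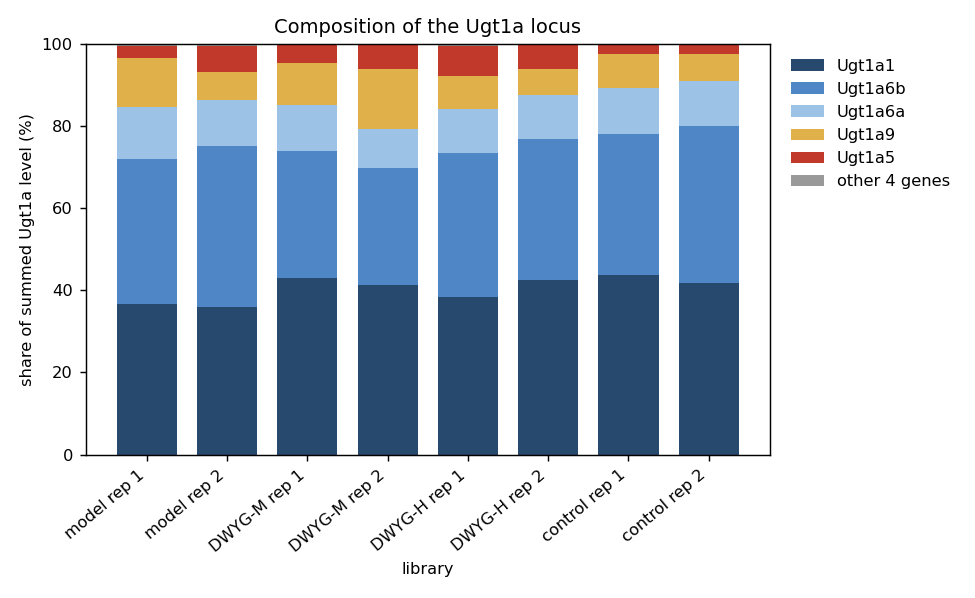
Share of the summed Ugt1a level (percent of scaled FPKM, stacked to 100) taken by each gene in each of the 8 libraries, from model on the left to control on the right. Ugt1a1 takes 36.0% to 43.7% in every library, and Ugt1a5 takes 2.17% to 7.26%, with its lowest shares in the 2 controls.

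Among sulfotransferases, Sult2a8 (gene ID 76971), which sulfonates bile acids in mouse liver, was the most abundant in control liver and fell in model. It was at 189.64 and 46.5 scaled FPKM in model, 209.97 and 478.15 in DWYG-M, 320.65 and 317.41 in DWYG-H, and 761.33 and 612.73 in control. All 6 libraries of mice given DEN and CCl4 were below both controls, and model replicate 2 was the lowest of all. Sult2a8 fell by 2.55 in model (SE 0.63, adjusted p = 0.0254), a call that leaving out a control library ended (adjusted p up to 0.0893), and without model replicate 2 it fell by 1.86 (adjusted p = 0.0487). Its share of the summed Sult level was 39.2% and 13.5% in model, against 78.4% and 72.8% in control. Sult5a1 (gene ID 57429) was at 4.90 and 1.49 scaled FPKM in model, 3.63 and 13.9 in DWYG-M, 6.07 and 8.97 in DWYG-H, and 19.1 and 26.5 in control. It fell by 2.84 (SE 0.68, adjusted p = 0.0226), and its call ended when model replicate 2 or a control library was left out (adjusted p up to 0.0971).

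The Sult1 subfamily ran the other way in summed level, mainly through Sult1a1, the phenol sulfotransferase of liver. Sult1a1 was at 206.38 and 243.95 scaled FPKM in model, 239.69 and 336.02 in DWYG-M, 275.75 and 216.87 in DWYG-H, and 138.44 and 167.12 in control. Both controls lay below all other libraries, but the change of 0.56 in model (SE 0.23) had an adjusted p of 0.118. On FPKM and TPM values limma gave 0.83 and 1.15 with adjusted p-values of 0.0212 and 0.0035. Sult1d1, a catecholamine sulfotransferase in mouse, was at 58.0 and 25.9 scaled FPKM in model, 35.5 and 49.5 in DWYG-M, 47.8 and 53.7 in DWYG-H, and 41.7 and 23.6 in control, with overlapping groups and a change of 0.36 (adjusted p = 0.556). Sult1b1, which handles thyroid hormones and phenols, was at 6.58 and 4.69 scaled FPKM in model, 9.06 and 10.6 in DWYG-M, 9.18 and 8.56 in DWYG-H, and 6.90 and 9.16 in control. Its model libraries were the lowest, but its change was −0.51 (adjusted p = 0.132), or 0.07 on TPM values, and Sult1c2 gave 0.61 (adjusted p = 0.317). The summed Sult1 level was 276.1 and 281.74 scaled FPKM in model and 188.96 and 201.11 in control.

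Several sulfotransferases were almost silent in control liver and present in all 6 libraries of mice given DEN and CCl4. Sult1e1, the estrogen sulfotransferase, was at 2.73 and 5.04 scaled FPKM in model, 2.24 and 3.82 in DWYG-M, 8.30 and 2.76 in DWYG-H, and 0.0648 and 0.0707 in control. In model vs control its ratio was 56.6 (exact counting interval 15.4 to 472) on 144 model and 2 control counts, with an edgeR adjusted p of 0.00599. Sult2a2, a hydroxysteroid sulfotransferase that is female-biased in mouse liver, was at 10.21 and 10.49 scaled FPKM in model, 17.8 and 4.18 in DWYG-M, 8.57 and 13.1 in DWYG-H, and 0 and 0.165 in control. Its ratio was 136 (interval 24.1 to 5400) on 173 model counts and 1 control count (adjusted p = 0.00599), and 62.1% of its 50-base windows occur in another gene, most often Sult2a1, so reads may be shared between the copies. Sult4a1, best known from brain, was at 0.332 and 0.858 scaled FPKM in model, 0.996 and 0.517 in DWYG-M, 0.906 and 1.39 in DWYG-H, and 0 in both controls. It was at least 13.4-fold higher in model, taking 3 counts over the group as the floor for control (adjusted p = 0.0133).

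These 3 genes were also called in both DWYG groups against control. The calls of Sult1e1 and Sult4a1 in model vs control were lost when a control library was left out, with adjusted p-values up to 0.0539 and 0.0636, and that of Sult4a1 also in limma with 1 added to FPKM. That of Sult2a2 held in all 18 alternatives. In the DWYG groups all 3 genes lost their calls when a control library was left out, Sult1e1 in DWYG-M also without DWYG-M replicate 2, and Sult4a1 in DWYG-M also in limma with 1 added to FPKM (adjusted p up to 0.161). Counting intervals cover counting error only. In the DWYG groups the ratios to control were 44.2 in DWYG-M and 79.4 in DWYG-H for Sult1e1, and 141 and 143 for Sult2a2. Sult4a1 was at least 17.4-fold higher in DWYG-M and at least 26.8-fold higher in DWYG-H.

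Among members too low for the test, Sult2b1, a cholesterol sulfotransferase, had 8 and 29 counts in model, 12 and 14 in DWYG-M, 12 and 13 in DWYG-H, and 0 and 1 in control. Its ratio in model vs control was 29.1 (counting interval 4.91 to 1180), with an adjusted p of 0.0182 in the fit with no filter. Sult2a1 had 9.13 and 4.09 counts in model and 0 in both controls, which put it at least 3.41-fold higher (adjusted p = 0.0461 in the fit with no filter). Sult3a1, another female-biased gene of mouse liver, was at 0 in both controls and at most 0.423 scaled FPKM elsewhere, a level at which no difference could be detected. Sult2a7, which was tested, was at 1.67 and 0.269 scaled FPKM in model, 0.556 and 2.72 in DWYG-M, 2.35 and 1.87 in DWYG-H, and 1.46 and 0.966 in control. Its groups overlapped, and it gave −0.31 in model vs control (adjusted p = 0.84), or 0.03 on TPM values.

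By subfamily, summed scaled FPKM in model was 0.661 of control for Ugt1a, 0.468 for Ugt2a, 0.446 for Ugt2b, 0.367 for Ugt3a, 0.191 for Sult2, 0.140 for Sult5 and 1.43 for Sult1. All Ugt genes together stood at 1581 ± 602 scaled FPKM in model and 3382 ± 443.4 in control (SD, n = 2 each), and all Sult genes at 414 ± 99.4 and 906.2 ± 91.4. The Ugt1a ratio depended on the scale, since its log2 value was −0.60 on scaled FPKM, −0.31 on deposited FPKM and 0.02 on TPM. The other 6 subfamily ratios kept their direction on the 3 scales. The median log2 change of all genes in model vs control was itself 0.50 on TPM and 0.21 on FPKM. In control libraries Mup transcripts, which encode male urinary pheromone carriers, took 15.3% and 15.4% of all counts, against 1.76% and 0.563% in model.

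**Figure D4:**
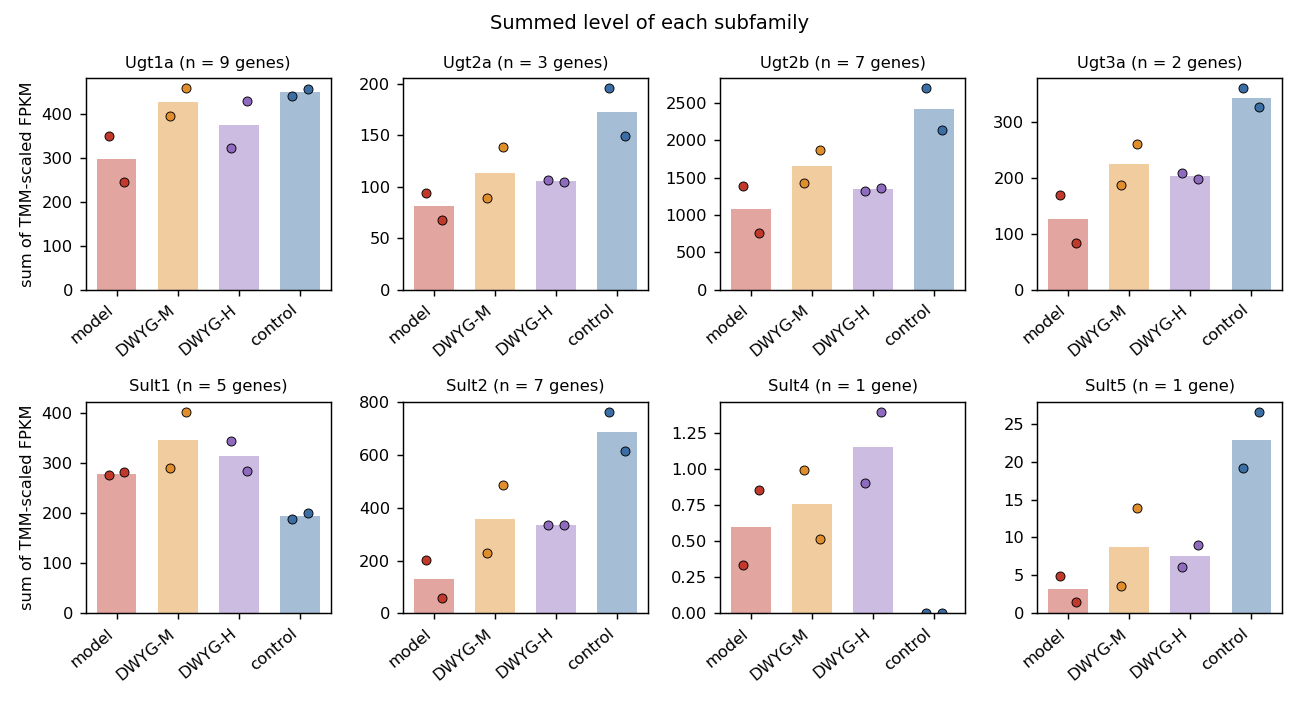
Summed scaled FPKM of 8 subfamilies (points, 1 per library; bars, group means) in model, DWYG-M, DWYG-H and control liver, each panel with its own vertical axis from 0. The Ugt2b sum is 1393.9 and 759.99 in model and 2697.8 and 2134.5 in control, while the Sult1 sum is higher in model than in control.

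The comparison of each DWYG group with model asked whether the treatment changed liver transcripts in mice given DEN and CCl4. No member was called in DWYG-M vs model or in DWYG-H vs model. Among all genes tested 0.00862% (1 gene) and 0% were called there, and the shares in 1 direction were 0.00862% higher and 0% lower in DWYG-M. In DWYG-M vs model 9 members had an unadjusted p under 0.05 (8 higher and 1 lower), beside 12.6% of all genes, with a smallest adjusted p of 0.213. In DWYG-H vs model 5 did (4 higher and 1 lower), beside 8.49% of all genes, with a smallest adjusted p of 0.371. The median log2 change of the 26 members was 0.53 in DWYG-M, positive in 23 of 26, and 0.42 in DWYG-H, positive in 21 of 26, beside −0.02 and −0.01 over all genes. Both DWYG-M libraries lay above both model libraries in 10 members and below them in 2 (21.2% and 19.9% of all genes), and both DWYG-H libraries in 11 and 1 (17.5% and 17.4%). Without model replicate 2 the medians were 0.25 in DWYG-M and 0.21 in DWYG-H, positive in 19 and 18 of 26. The DWYG-M median was 0.78 without DWYG-M replicate 1 and 0.39 without DWYG-M replicate 2.

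Ugt2b38 and Ugt2b1 had the smallest p in DWYG-M vs model. Ugt2b38 gave 1.55 in DWYG-M (95% interval 0.74 to 2.37, adjusted p = 0.213) and 0.56 in DWYG-H (95% interval −0.30 to 1.42, adjusted p = 0.747). Ugt2b1 gave 1.42 in DWYG-M (SE 0.34, adjusted p = 0.231) and 0.98 in DWYG-H (SE 0.34, adjusted p = 0.489). Both genes were lower in both model libraries than in all 4 DWYG libraries. For Ugt2b38 this was close to a tie in DWYG-H, with model replicate 2 at 1.37 scaled FPKM and DWYG-H replicate 2 at 1.38. Without model replicate 2 the DWYG-M and DWYG-H changes were 1.65 and 0.65 for Ugt2b38, and 1.04 and 0.60 for Ugt2b1. Without DWYG-M replicate 2 the DWYG-M changes were 1.02 for Ugt2b38 and 1.08 for Ugt2b1. DESeq2 called these 2 genes in DWYG-M vs model (adjusted p = 0.00732 for Ugt2b38 and 0.00267 for Ugt2b1), where it called 1.77% of all genes, and called no member in DWYG-H vs model. Sult1b1 gave 0.80 in DWYG-M (adjusted p = 0.266) and 0.65 in DWYG-H (adjusted p = 0.472), and Ugt1a5 gave 0.80 (adjusted p = 0.285) and 0.90 (adjusted p = 0.371).

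For the other members that fell in model, neither DWYG group passed the test against model. Sult2a8 gave 1.55 in DWYG-M (adjusted p = 0.369) and 1.44 in DWYG-H (adjusted p = 0.581), and Sult5a1 gave 1.47 (adjusted p = 0.411) and 1.25 (adjusted p = 0.664). Ugt3a1 gave 0.90 (adjusted p = 0.309) and 0.68 (adjusted p = 0.596), and Ugt3a2 gave 0.80 (adjusted p = 0.382) and 0.69 (adjusted p = 0.614). For Ugt2b5 the values were 0.60 (adjusted p = 0.497) and 0.19 (adjusted p = 0.933), and for Ugt2a3 they were 0.49 (adjusted p = 0.495) and 0.38 (adjusted p = 0.76). Without model replicate 2 the DWYG-M and DWYG-H changes were 0.87 and 0.76 for Sult2a8, 0.86 and 0.65 for Sult5a1, and 0.49 and 0.27 for Ugt3a1. They were 0.37 and 0.26 for Ugt3a2, 0.27 and 0.17 for Ugt2a3, and 0.22 and −0.19 for Ugt2b5, whose sign turned in DWYG-H. Without DWYG-M replicate 2 the DWYG-M change of Sult5a1 was 0.22 and that of Sult2a8 0.84. These contrasts share the model libraries with model vs control.

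The 2 members with negative changes at an unadjusted p under 0.05 were both of low level. Ugt1a7c gave −0.90 in DWYG-M (adjusted p = 0.369) and −0.16 in DWYG-H (adjusted p = 0.954). Ugt2b37 gave −0.49 in DWYG-M (adjusted p = 0.553) and −0.83 in DWYG-H (adjusted p = 0.522). With the 4 DWYG libraries set against model, no member was called, beside 0.0345% of all genes (0.00862% higher and 0.0258% lower), 9 had an unadjusted p under 0.05 (13.9% of all genes did), and the smallest adjusted p was 0.196. DESeq2 called Ugt1a5 (0.84, adjusted p = 0.0273) and Ugt2b1 (1.20, adjusted p = 0.00236) in that contrast. The share of all genes that DESeq2 called there is not given. These calls therefore cannot be set against the edgeR share or read as particular to the members.

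**Figure D5:**
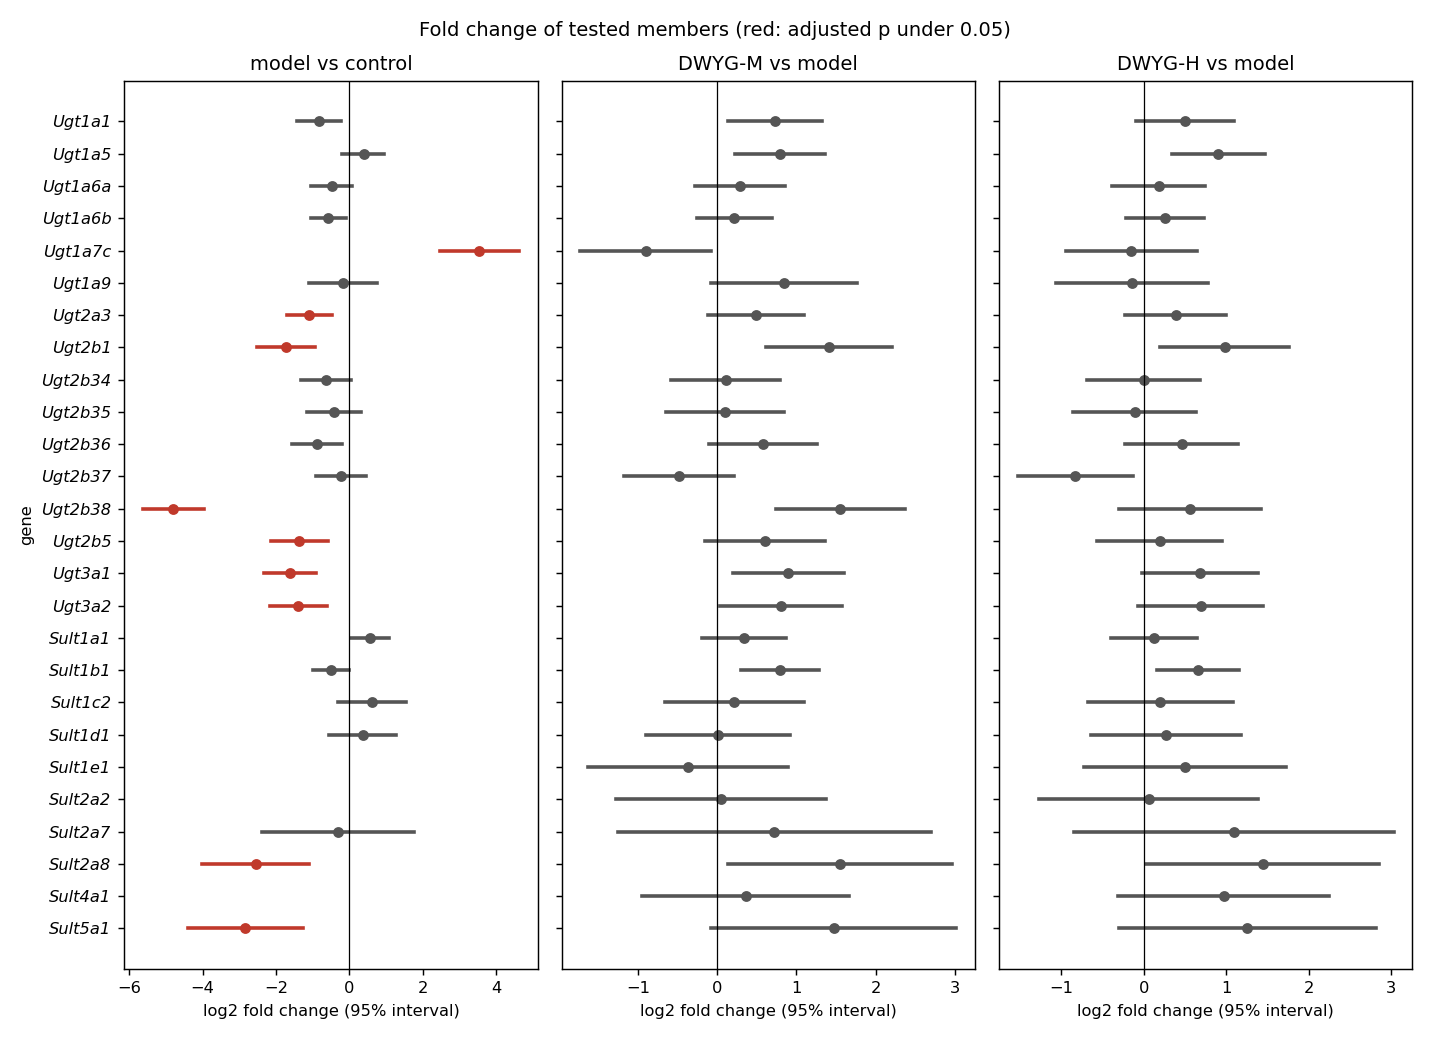
Log2 fold change with 95% interval (horizontal axes, each with its own scale) of the tested members in model vs control, DWYG-M vs model and DWYG-H vs model; red marks an adjusted p under 0.05. Sult1e1, Sult2a2 and Sult4a1 are left out of the first panel because of their 0 to 2 control counts. Red points appear in model vs control only, and the DWYG-M interval of Ugt2b38 runs from 0.74 to 2.37.

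Against control, DWYG-M liver had 5 members higher and 1 lower, beside 4.35% and 0.603% of all genes (4.95% in either direction). DWYG-H liver likewise had 5 higher and 1 lower, beside 6.59% and 1.09% of all genes (7.69%). In both, the genes that rose were Ugt1a5, Ugt1a7c, Sult1e1, Sult2a2 and Sult4a1, and the gene that fell was Ugt2b38. Except for Ugt1a5, the genes that rose had no control library at an FPKM of 1, so these counts of genes that rose cannot be read against the share of all genes. Ugt2b38 fell by 3.24 in DWYG-M (SE 0.33, adjusted p = 0.00438) and by 4.24 in DWYG-H (SE 0.35, adjusted p = 0.00196), and both calls held in all 18 alternatives. Ugt1a7c rose by 2.63 in DWYG-M (adjusted p = 0.0244) and by 3.38 in DWYG-H (adjusted p = 0.00752), the DWYG-M call being lost in limma with 1 added to FPKM and without either DWYG-M or either control library and the DWYG-H call without control replicate 2 (adjusted p up to 0.146 and 0.0698). Without either control library the calls shrank to Ugt2b38 alone in DWYG-M, and to 2 or 1 in DWYG-H. Both comparisons share the control libraries with model vs control.

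Sult1a1 gave 0.91 in DWYG-M vs control (adjusted p = 0.0701) and 0.69 in DWYG-H vs control (adjusted p = 0.116), and DESeq2 called it in both (adjusted p = 0.0052 and 0.0493). When DWYG-H and control were fitted alone, 11 members were called, beside 10.1% of all genes, among them Ugt2b5, Ugt3a1, Ugt3a2, Sult2a8 and Sult5a1 as lower (adjusted p up to 0.047).

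Between the 2 doses no member was called, and edgeR called 0% of all genes in DWYG-H vs DWYG-M (DESeq2 called no member either). An unadjusted p under 0.05 was found for 2 members, and for 1.66% of all genes. Ugt1a9 gave −0.99 (95% interval −1.91 to −0.06) and Ugt2b38 gave −0.99 (95% interval −1.79 to −0.20), both at an adjusted p of 1. Ugt1a9 was at 26.3 and 27.4 scaled FPKM in DWYG-H and 40.1 and 66.4 in DWYG-M. The median member change was −0.11. The intervals are not adjusted for the number of genes.

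Genes that supply, regulate or act beside these enzymes were read from lists, each beside the 15.1% and 7.12% of all genes that rose and fell in model vs control. Of 9 genes for the supply of UDP-glucuronic acid, the hexokinase Hk1 (0.94) and the phosphoglucomutase Pgm2 (1.36) rose and none fell, with a median of 0.03. The gene of the committed step, Ugdh, gave 0.20 (adjusted p = 0.633). Of 11 genes for sulfate activation and PAPS handling, sulfite oxidase Suox (−1.11) and the PAP phosphatase Bpnt1 (−0.55) fell and none rose, with a median of −0.04. The calls of Hk1 and Pgm2 were lost when model replicate 2 or a control library was left out. That of Suox was lost in 9 of 18 alternatives and that of Bpnt1 in 14, with its sign turned in limma on log2(TPM + 1).

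Among 9 transporters of conjugates, 1 rose and 4 fell, with a median of −0.68. The 1 that rose, Abcc4, had no control library at an FPKM of 1, so that count was set by the filter. Slco1a1, a male-biased uptake carrier of sulfated and glucuronidated steroids, was at 11.4 and 4.35 scaled FPKM in model, 38.4 and 38.3 in DWYG-M, 18.5 and 21.9 in DWYG-H, and 183.88 and 180.7 in control, a fall of 4.53 in model (adjusted p = 0.00092). Abcc4, a basolateral exporter of conjugates, was at 6.87 and 3.98 scaled FPKM in model, 2.22 and 1.51 in DWYG-M, 1.79 and 2.20 in DWYG-H, and 0.799 and 0.542 in control, a rise of 2.999 in model (adjusted p = 0.00181). Both calls held in every alternative that could be fitted. Slco2b1 (−0.99), Abcg2 (−0.89) and Abcc6 (−0.68) also fell, but these calls were lost on TPM and FPKM values and without model replicate 2 or control replicate 2. Of 6 genes listed for deconjugation, the glucuronidase Gusb rose (0.65) and Ces3a fell (−1.86), with a median of −0.16. Ces3a is a carboxylesterase, not a glucuronidase or sulfatase. The Ces3a call held in all 18 alternatives, and that of Gusb was lost in 6, among them those without model replicate 2 or a control library.

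Among 21 tested nuclear receptors and other regulators of conjugation genes, 1 rose and 3 fell, with a median of −0.39. Nfe2l2, the oxidative stress factor NRF2, was at 55.2 and 58.0 scaled FPKM in model, 39.96 and 40.96 in DWYG-M, 46.4 and 51.1 in DWYG-H, and 23.4 and 31.7 in control, a rise of 1.04 in model (adjusted p = 0.0064) that held in all 18 alternatives. Nr1i3, the xenobiotic receptor CAR, was at 31.4 and 10.8 in model and 55.9 and 58.5 in control, a fall of 1.42 (adjusted p = 0.0401). Cebpa (−1.09) and Foxa1 (−0.65) also fell. The calls of Nr1i3, Cebpa and Foxa1 were lost on TPM and FPKM values and without either control library, and those of Cebpa and Foxa1 also without either model library. Of 11 tested target genes that report xenobiotic receptor and NRF2 activity, 5 rose and none fell: Nqo1 (2.57), Srxn1 (2.32), Cyp2c55 (2.41), Cyp2b10 (4.22) and Tiparp (0.94), with a median of 0.26. Of these 5, Cyp2b10 had no control library at an FPKM of 1, so that count was partly set by the filter. Cyp2b10 and Tiparp lost their calls when a control library was left out. Cyp1a2 went the other way without a call, at 173.67 and 43.9 scaled FPKM in model and 310.19 and 377.96 in control. The other tested genes of this list, Cyp3a11, Cyp4a10, Cyp4a14, Gclc and Txnrd1, overlapped between model and control libraries. Of 10 tested genes listed for sex-biased liver expression and the growth hormone axis that sets it, 3 fell and 1 rose, with a median of −0.28. Ghr, the growth hormone receptor (−1.54), Bcl6 (−2.03) and Rtp3 (−1.01) fell and Trim24 (0.72) rose. The Bcl6 controls differed widely, at 3.65 and 16.77 scaled FPKM, against 2.88 and 1.91 in model. All 4 of these calls were lost without control replicate 2, and those of Bcl6, Rtp3 and Trim24 without either model library.

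None of these pathway genes was called in DWYG-M vs model, DWYG-H vs model or DWYG-H vs DWYG-M. Against control, Slco1a1 fell by 2.25 and Foxa1 by 0.88 in DWYG-M, where Nqo1 (1.65), Cyp2c55 (2.36) and Trim24 (0.87) rose. In DWYG-H vs control Slco1a1 fell by 3.17 and Foxa1 by 0.85, while Abcc4 (1.55), Nfe2l2 (0.82), Esr1 (0.81), Cyp2b10 (4.27), Cyp2c55 (2.17), Nqo1 (1.43) and Trim24 (0.77) rose. Of these calls that of Slco1a1 in DWYG-H held in all 18 alternatives, and each of the others was lost when a control library was left out.

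Marker lists of cell types and of liver tumours were read in the same comparison. Their counts stand beside the 15.1% of all genes tested that rose and the 7.12% that fell. In model vs control, 0 of 14 tested hepatocyte markers rose and 2 fell, with a median of −0.51, beside −0.50 for the 26 conjugation genes. Of 9 tested cholangiocyte markers 8 rose, of 12 stellate and fibroblast markers 9 rose, of 11 macrophage markers 4 rose and 1 fell, of 9 endothelial markers 2 rose, all 4 tested neutrophil markers rose, 1 of 4 lymphocyte markers rose and all 9 tumour markers rose. Of the markers that rose, 5 cholangiocyte, 3 stellate, 2 macrophage, 1 endothelial, 1 neutrophil and 5 tumour markers had no control library at an FPKM of 1 and were tested only because other groups were higher, so these counts were partly set by the filter. Neither of the 2 tested gut and pancreas markers was called, and no kidney marker reached the filter. The summed cholangiocyte markers were at 303.6 to 490.5 scaled FPKM in model, 192.3 to 225.2 in DWYG-M, 239.5 to 279.0 in DWYG-H, and 51.7 to 53.6 in control. The tumour marker sum was 1532 to 2525 in model, 522.9 to 888.0 in DWYG-M, 686.7 to 1340.0 in DWYG-H, and 8.09 to 11.96 in control, with Cdh17 at 0 in both controls. Lcn2 was the highest of these genes in every library. Its level was 1162.1 and 1569.8 scaled FPKM in model and 279.14 to 945.17 over the DWYG libraries. Gpc3 and Cd24a were likewise lower in all DWYG libraries than in both model libraries. Afp, Igf2, Cdh17, Tspan8, Golm1 and Mki67 overlapped between DWYG and model libraries. Afp was at 125.28 and 577.85 in model and 107.15 to 211.9 over the DWYG libraries. In DWYG-M vs model and DWYG-H vs model no marker was called, with median changes of 0.48 and 0.49 for hepatocyte markers and −1.40 and −2.01 for cholangiocyte markers. With both DWYG groups against model, the cholangiocyte marker Mmp7 (−2.51) and the tumour marker Cd24a (−1.42) fell, calls lost in 9 and 5 of 18 alternatives. The part of these shifts in the changes of Ugt and Sult genes was not tested.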

How the data were processed

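Liver RNA of 8 mice was sequenced after SMART-Seq library preparation, per the labels' protocols. Estimated counts per gene were deposited by the authors, made against genome build GRCm39 per the submitters' processing notes, while no aligner, counter, annotation or strand setting was given in the sources used here. In the deposited files 89.8% to 91.5% of a library's counts were whole (within 0.005). The authors also deposited FPKM and TPM per gene and library, and a scaled count, treated as a signal, which was not used. The authors' group means were not used either.

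Counts were rounded and fitted with edgeR 4.0.16 in R 4.3.3 (TMM, quasi-likelihood, 1 model of 4 groups and 7 contrasts) over the 11606 genes whose FPKM reached 1 in 2 or more libraries, and p-values were adjusted by Benjamini-Hochberg over all of them. Scripts were tested on simulated data. Alternatives used other size factors, DESeq2 1.42.0, limma 3.58.1 on log2(FPKM + 1), log2(FPKM + 0.1) and log2(TPM + 1), other filters, only the groups compared, the replicate number as a block, and each library left out in turn. A fit that leaves out a library assumes that its partner varies like the other groups. With 2 livers a group, an exact permutation test on 1 gene cannot pass the threshold, so tests rest on spread shared across genes.

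All 36 members were matched to RefSeq by gene ID and symbol, and promoters came from the RefSeq table of GRCm38.p6, another build than that of the counts. Of the 26 tested members 11 had counts that were not whole, and reads of near-identical genes may have been split between them. Members and gene lists were chosen with earlier results of these data known. Values in every library were given for members called in any contrast with groups that do not overlap and for the 3 members of each subfamily with the highest mean level. List genes were named where called, up to 6 a list, and Ugdh was added after its value was seen.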

Additional observations from a re-analysis of the deposited data

How the results depend on the processing

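Over the alternatives, no fold change of a called member turned its direction, 352 kept their side of the threshold and 62 lost the call. Counts of members called in model vs control ranged from 4 to 16 when 1 library was left out, in DWYG-M vs control from 1 to 6, and in DWYG-H vs control from 1 to 8. In DWYG-H vs control 11 members were called when only those 2 groups were fitted. DESeq2 called 2 members in DWYG-M vs model and 2 in both DWYG groups vs model, where edgeR called 0. In DWYG-M vs model DESeq2 also called a larger share of all genes than edgeR did, so these counts do not single out the members. For model vs control, log2 ratios of subfamily sums on TPM were 0.02 for Ugt1a, −0.49 for Ugt2a, −0.55 for Ugt2b, −0.82 for Ugt3a and 1.12 for Sult1, and on deposited FPKM −0.31 for Ugt1a and 0.79 for Sult1. With 1 library left out they ranged from −0.88 to −0.36 for Ugt1a, −1.67 to −0.79 for Ugt2b, −2.05 to −1.02 for Ugt3a, −3.53 to −1.76 for Sult2 and −3.94 to −2.22 for Sult5. The cause of these shifts was not tested. All genes called in model vs control numbered 2582, against 5407 in limma on log2(TPM + 1), 1669 with only those groups fitted, 1389 without model replicate 2, 1089 without control replicate 1 and 790 without control replicate 2.

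Deviations of same-numbered libraries correlated at 0.255 between DWYG-H and DWYG-M and 0.204 between model and control, and at −0.143 to 0.0778 in the other 4 pairs of groups. Not every pair exceeded 0.1, so the numbers were not taken as pairs. With the replicate block, 13 members were called in model vs control (Ugt2b36 added, adjusted p = 0.0481), 5 in DWYG-M vs control (Sult4a1 lost) and 6 in DWYG-H vs control. With 2 livers a group, wide intervals, such as 0.74 to 2.37 for Ugt2b38 in DWYG-M vs model, limit what the DWYG comparisons can show.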
